A study of Mus musculus with 4 samples.

Results

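The mitochondrially encoded genes of mouse hematopoietic stem and progenitor cells (HSPCs) were examined with and without Chaf1b, a subunit of the histone chaperone CAF-1. Members were all genes in the count tables whose symbol starts with mt-. The rule found 37 genes of 43629 gene identifiers, of which 13 were protein-coding genes, 2 were rRNA genes and 22 were tRNA genes. None of the 37 had a single count in any of the 4 libraries, in control or in Chaf1b-deleted cells, so the deposited counts hold no measurement of a change in mitochondrial RNA after Chaf1b deletion. No member could be compared between the groups.

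RNA was taken from CD117+ HSPCs of C57Bl/6 mice of genotype Chaf1b (fl/fl), so the controls carried the floxed alleles too. The culture medium held SCF at 50, IL3 at 10 and IL6 at 20 ng/mL with added LDL according to the labels, and the study's methods state a lower amount of IL6. Control cells (2 libraries) received the empty retroviral vector MIGR1 and Chaf1b-deleted cells (2 libraries) received MIGR1-Cre, which carries the Cre recombinase, by spinfection, and eGFP-positive cells were sorted 48 h later. The labels give neither the age of the mice nor whether libraries of a group came from separate animals or cultures, and p-values therefore measure only the spread between these samples. Libraries were made from total RNA with a stranded kit that removes rRNA.

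The mitochondrial chromosome is a small circle that mitochondria copy and transcribe themselves. Both of its strands are transcribed as long RNAs, in which tRNAs lie between most of the rRNAs and mRNAs, and the RNAs are released by cutting at the tRNA ends. The mRNAs encode subunits of respiratory complexes I, III and IV and of ATP synthase (complex V), the rRNAs form the mitochondrial ribosome, and every other protein needed is encoded in the nucleus. Stretches of mitochondrial DNA have also been copied into nuclear chromosomes during evolution, and such a copy can share reads with the gene it came from.

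Because a read that also fits a nuclear copy cannot be placed uniquely, the sequence of each member was compared with the nuclear chromosomes of NCBIM37, the Ensembl name of mm9. The following 6 tRNAs are shown, 5′ to 3′ on the strand of the gene, because they span the range from no copy to a complete copy. Capitals mark bases that lie in no exact nuclear match of 31 bases or more.
mt-Tf, chrM:1-68, plus strand: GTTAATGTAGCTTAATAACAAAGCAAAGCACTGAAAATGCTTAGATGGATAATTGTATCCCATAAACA
mt-Tl1, chrM:2676-2750, plus strand: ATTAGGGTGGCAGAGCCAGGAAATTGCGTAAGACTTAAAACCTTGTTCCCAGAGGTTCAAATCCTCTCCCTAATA
mt-Tq, chrM:3772-3842, minus strand: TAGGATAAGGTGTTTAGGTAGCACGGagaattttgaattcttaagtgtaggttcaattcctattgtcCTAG
mt-Tl2, chrM:11671-11741, plus strand: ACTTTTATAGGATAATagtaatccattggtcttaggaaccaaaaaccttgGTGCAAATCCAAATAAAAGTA
mt-Tk, chrM:7700-7764, plus strand: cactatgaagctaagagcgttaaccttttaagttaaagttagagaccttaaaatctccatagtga
mt-Tw, chrM:4950-5016, plus strand: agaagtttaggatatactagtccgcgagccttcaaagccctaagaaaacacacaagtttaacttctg
The tRNAs mt-Tf, for phenylalanine, and mt-Tl1, for leucine, have no such match at all, mt-Tq (glutamine) and mt-Tl2 (leucine) have 30 and 37 bases outside one, and mt-Tk (lysine) and mt-Tw (tryptophan) lie wholly inside one.

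By RNA class, the 13 protein-coding genes (204 to 1824 bases, 12 on the plus strand and mt-Nd6 on the minus strand) received 0 counts in control 1, control 2, Chaf1b-deleted 1 and Chaf1b-deleted 2. They comprise 7 subunits of complex I (mt-Nd1, mt-Nd2, mt-Nd3, mt-Nd4, mt-Nd4l, mt-Nd5 and mt-Nd6), mt-Cytb of complex III, 3 subunits of complex IV (mt-Co1, mt-Co2 and mt-Co3), and mt-Atp6 and mt-Atp8 of complex V. Both rRNA genes, mt-Rnr1 (955 bases) and mt-Rnr2 (1582 bases), which encode the small and the large rRNA of the mitochondrial ribosome, were at 0 in the 4 libraries. All 22 tRNA genes (59 to 75 bases, 14 on the plus and 8 on the minus strand) were at 0 as well.

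The zeros were read against the depth. Counts on genes numbered 22736626 and 25409926 in the controls, and 23539015 and 18468637 after Chaf1b deletion. A count of 0 therefore allows a class a share of up to 1.319e-05% and 1.181e-05% of counts on genes in the controls and up to 1.274e-05% and 1.624e-05% in the Chaf1b-deleted libraries. These limits (3 counts, or 0.118 to 0.162 CPM, counts scaled to the total on genes) cover counting error only, and they bound what was counted, not the RNA in the cells. The share of counts was 0% in every class and library, and so was the difference between the groups, for which no test has meaning. The share of mt-Nd6 among mitochondrial mRNA counts and the ratio of mt-Rnr2 to mt-Rnr1 have a denominator of 0 and gave no value. Whether the mitochondrial chromosome was part of the alignment and of the counting is not given in the sources used here.

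Protein-coding genes elsewhere in the genome were rarely without a count. At least 1 count in any of the 4 libraries was found for 19078 of 20901 nuclear protein-coding genes (91.28%), and the share ranged from 84.67% to 97.16% over the 19 autosomes. On the mitochondrial chromosome it was 0 of 13. Of 268 nuclear genes annotated as rRNA, 127 (47.39%) had a count, against 0 of 2 mitochondrial rRNA genes. Short nuclear RNAs were counted too, with 42.4% of 1085 snRNA genes and 37.97% of 1230 snoRNA genes at 1 count or more, against 0 of 22 mitochondrial tRNA genes. Among all identifiers in the tables, 12230 (28.03%) had 0 counts in every library.

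**Figure D1:**
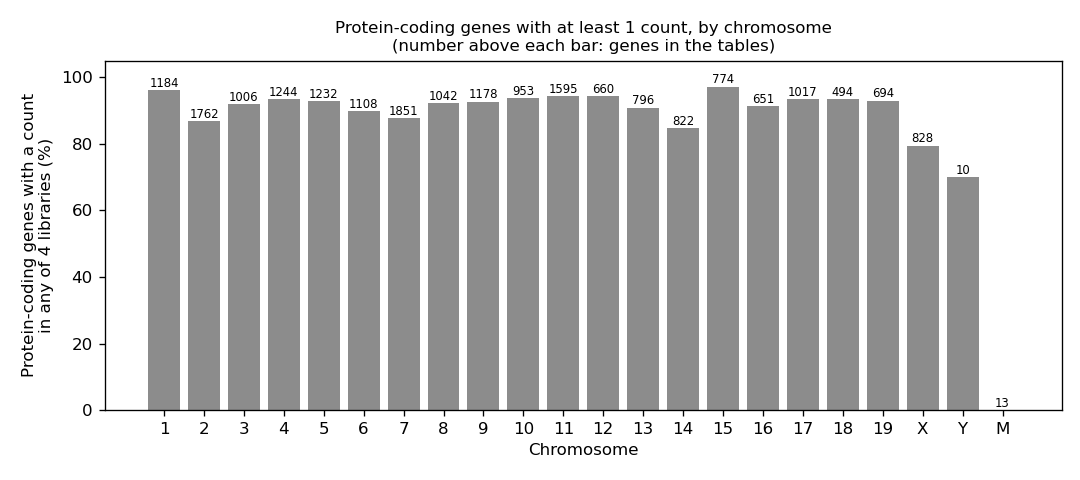
The bars give the percent of protein-coding genes with at least 1 count in any of the 4 libraries, by chromosome, with the number of genes above each bar. The autosomes lie between 84.67% and 97.16%, and the mitochondrial chromosome (M) has no bar because 0 of its 13 genes had a count.

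Nuclear copies cover some members and leave others untouched. Of the 16269 stretches of 31 bases on the mitochondrial chromosome (16299 bases), 6692 (41.13%) occur exactly on a nuclear chromosome, and 32.16% of stretches of 75 bases do. The longest match, 3067 bases from position 6394 to position 9460, lies on the minus strand at chr1:24619957-24623023 and holds all of mt-Co2, mt-Atp8, mt-Atp6 and mt-Co3. Together with mt-Nd4l, which lies in the next longest match (1222 bases, chr1:24618374-24619595), these are the 5 protein-coding genes with an exact nuclear copy of every 31-base stretch, as are 9 of the 22 tRNA genes. At the other end, 9 members had no stretch with a nuclear copy, namely mt-Nd1, mt-Rnr1 and 7 tRNA genes. In between, 99.06% of stretches of mt-Nd3, 63.89% of mt-Co1 and 62.98% of mt-Nd4 had a copy, against 17.06% for mt-Nd5, 13.59% for mt-Nd2, 12.95% for mt-Rnr2, 7.362% for mt-Nd6 and 6.553% for mt-Cytb. The 37 genes hold 8505 stretches found only on the mitochondrial chromosome, of which 5829 are in protein-coding genes and 2276 in rRNA genes, and these genes were at 0 like those with complete copies. Thus 0 counts were found for the 17 members with under 50% of stretches copied and for the 20 with 50% or more.

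**Figure D2:**
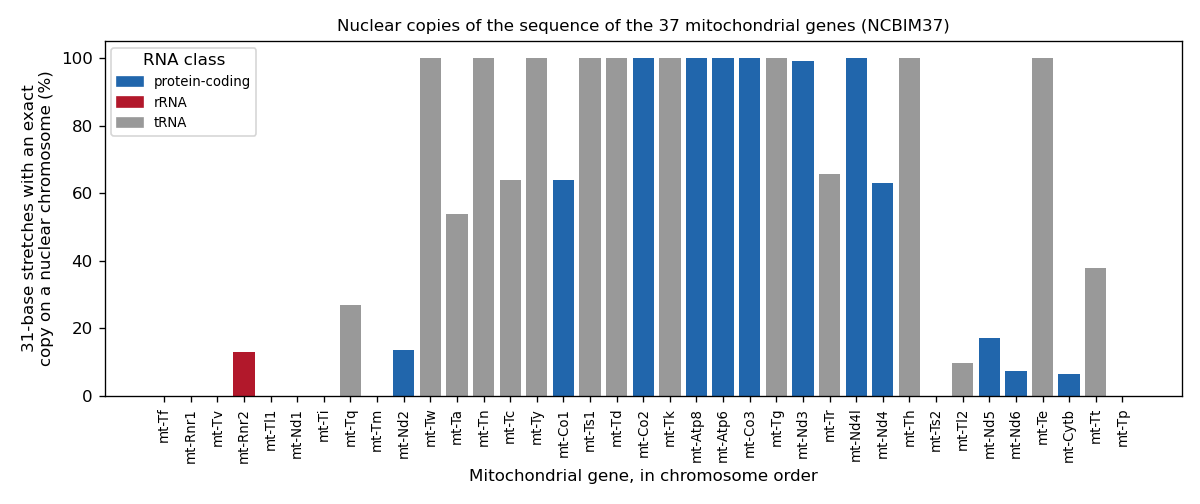
Each bar gives, for 1 mitochondrial gene in chromosome order, the percent of its 31-base stretches that occur exactly on a nuclear chromosome of NCBIM37, coloured by RNA class. The genes from mt-Co2 to mt-Co3 stand at 100%, while mt-Nd1 and mt-Rnr1 have no bar because they stand at 0%.

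Members also overlap each other, which in counting can make a read ambiguous. The longest overlap is 43 bases between mt-Atp8 and mt-Atp6 (positions 7927 to 7969), followed by 14 bases between mt-Nd5 and mt-Nd6 on opposite strands and 7 bases between mt-Nd4l and mt-Nd4, and the other 6 overlaps span 1 to 3 bases. The tables report reads outside any gene, 17284820 and 19170677 in the controls and 13709948 and 18027988 in the Chaf1b-deleted libraries, or 35.8% to 48.3% of uniquely aligned reads. Ambiguous reads made up 2.05% to 2.76% of uniquely aligned reads. Reads without a unique position numbered 9060245 and 9239703 in the controls and 8521725 and 6868427 in the Chaf1b-deleted libraries. How many reads of mitochondrial RNA are in these rows cannot be read from the tables.

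The annotated nuclear genes that derive from mitochondrial sequence were then examined, since they share sequence with the members. At least 1 mitochondrial 31-base stretch was found in the exons of 10 genes, and in 2 of them over 50% of stretches were mitochondrial. Gm10222 (chr1:24619243-24619539, minus strand) is identical to mt-Nd4l over all 297 bases and had 0 counts in every library. Gm10925, identical to mt-Atp6 over 677 aligned bases, was not among the counted identifiers, so it had no value to analyse. The other 8 held 3.077% to 47.98% mitochondrial stretches, and 7 of them had counts, which summed to 106 in each control and to 77 and 73 after Chaf1b deletion. These partial copies were chosen for description after their values were seen.

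The first 60 bases of 3 members and of their nuclear counterparts are shown, 5′ to 3′ in the direction of the mitochondrial gene, with differing bases in capitals, to show how close a member and its nuclear counterpart can be.
mt-Co1: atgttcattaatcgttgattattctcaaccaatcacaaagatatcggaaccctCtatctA
Gm13340: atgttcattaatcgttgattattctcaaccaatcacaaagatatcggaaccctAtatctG
mt-Nd6: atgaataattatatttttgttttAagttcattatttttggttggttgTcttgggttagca
Gm11408: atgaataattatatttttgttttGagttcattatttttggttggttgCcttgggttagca
mt-Nd4l: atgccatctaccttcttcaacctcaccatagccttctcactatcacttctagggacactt
Gm10222: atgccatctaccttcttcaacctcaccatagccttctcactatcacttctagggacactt
Gm13340, a pseudogene at chr2:22443623-22445167 on the minus strand, differs from mt-Co1 at 37 of 1545 bases (97.61% identical). It had 44 and 51 counts in the controls and 28 and 29 in the Chaf1b-deleted libraries, or 1.94, 2.01, 1.19 and 1.57 CPM. Both Chaf1b-deleted values were below both controls, yet the log2 fold change of -0.50 (SE 0.47) did not pass edgeR's quasi-likelihood test (adjusted p = 0.738). Gm13341, which is 97.62% identical to mt-Co2, had 36, 35, 41 and 22 counts in the same order, with overlapping groups (log2 fold change 0.04, SE 0.52, edgeR adjusted p = 0.988). Gm11408, 93.64% identical to mt-Nd6, had 5, 1, 0 and 1 counts. The nuclear relatives of mt-Co1 and mt-Co2 were thus counted at low levels in all 4 libraries, whereas mt-Co1 and mt-Co2 were not.

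Products of the members work only with nuclear-encoded partners, and the partners were measured. They were taken by their symbols, so the sums include a few genes that are no subunits of the complex named. Among these are Ndufa4 and its relative Ndufa4l2 with complex I, Cox4nb (21.61 to 30.04 CPM) and Cox7a2l with complex IV, and Atp5s, Atp5sl and the pseudogene Atp5l-ps1 (0 counts) with complex V. In complex I, which takes electrons from NADH, the 7 mitochondrial genes were at 0 while 37 of 38 nuclear identifiers with Nduf symbols (the exception being the shorter of 2 identifiers named Ndufb8) had counts in all 4 libraries, summing to 2424 and 2145 CPM in the controls and 2167 and 1796 CPM in the Chaf1b-deleted libraries. In complex III, which passes electrons to cytochrome c, all 9 nuclear genes were counted, at a sum of 936 and 794 CPM against 882 and 719 CPM. In complex IV, the cytochrome c oxidase, 17 of 19 nuclear genes with Cox symbols were counted, at 1275 and 1157 against 1286 and 1022 CPM. In complex V, the ATP synthase, 17 of 18 with Atp5 symbols were counted, at 3348 and 2639 against 3092 and 2421 CPM. The summed levels of the groups overlapped in each complex, and Chaf1b-deleted 2 was the lowest of the 4 libraries. On a scale per length, the median nuclear subunit of complex I had 48.5, 36.5, 39.4 and 31 CPM per kilobase in control 1, control 2, Chaf1b-deleted 1 and Chaf1b-deleted 2, where 3 counts on the shortest mitochondrial gene of the complex, mt-Nd4l, would give 0.444, 0.398, 0.429 and 0.547.

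**Figure D3:**
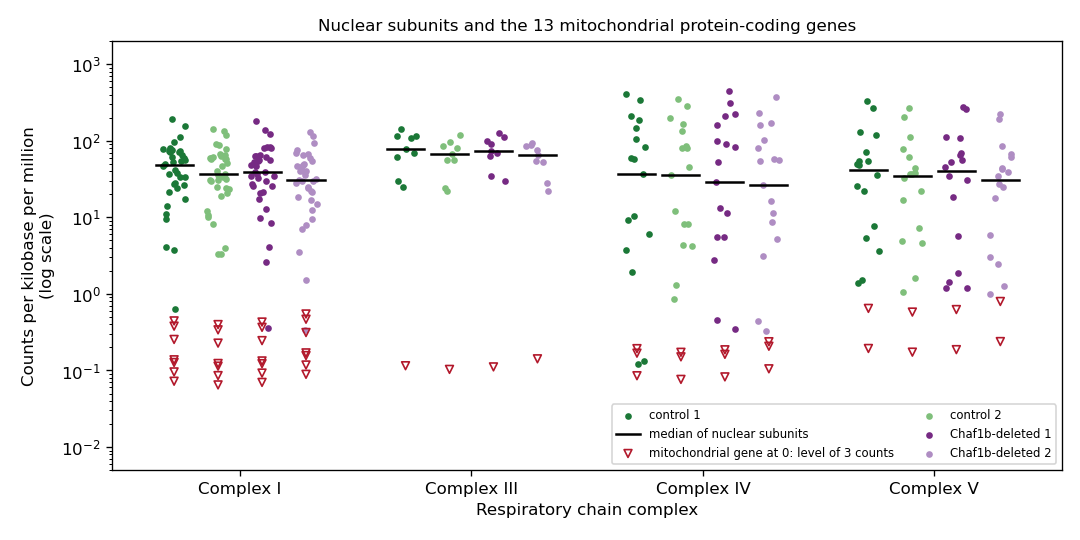
Points are nuclear-encoded subunit genes of complexes I, III, IV and V in each library, in counts per kilobase, scaled to the library total as CPM, on a log scale, with their median as a bar (genes at 0 have no point). Open triangles give the level that 3 counts would mean for each of the 13 mitochondrial protein-coding genes, all of which were at 0, and lie below the medians by more than an order of magnitude.

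To compare the groups, 7 lists of nuclear genes were taken. They hold genes that copy, transcribe, process and translate the mitochondrial genome, the subunits, and regulators of mitochondrial biogenesis. Values over the lists together leave out the regulators, of which 0 of 6 tested were called. In the fit to all genes, 16500 passed the filter on low counts, and of the 37 members 0 passed. Chaf1b itself fell in the deleted cells, from 1825 and 1471 counts to 378 and 330 (log2 fold change -2.005, SE 0.25, edgeR adjusted p = 0.033, or 0.0651 with at least 10 counts required in every library), and its partner Chaf1a had a log2 fold change of -0.43 (SE 0.26, adjusted p = 0.569). Of all genes tested, 0.37% were higher and 0.00606% lower at 1.5-fold and an adjusted p under 0.05, Chaf1b being the 1 lower gene. Of the 243 tested genes in the lists without the regulators (251 found), 0 were called in either direction, with a lowest edgeR adjusted p of 0.251. DESeq2, the likelihood ratio test and the exact test of edgeR gave 0 as well. At an unadjusted p under 0.05, 14 of the 243 were lower and 0 higher, against 3.1% lower and 9.15% higher of all genes tested. The median log2 fold change was -0.18 for the lists and -0.03 for all genes, and 194 of the 243 had a value below 0 (79.84%), against 8666 of 16500 genes tested (52.52%).

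That median moved with single libraries. It was 0.00246 without Chaf1b-deleted replicate 2, -0.04 without control replicate 1, -0.34 without control replicate 2 and -0.36 without Chaf1b-deleted replicate 1. Its direction over the pooled lists thus rested on Chaf1b-deleted 2. By list, the median without that library was 0.03 for ribosomal proteins and 0.13 for nuclear subunits. It stayed negative for replication and transcription (-0.24), RNA processing (-0.11), tRNA synthetases (-0.16) and translation factors (-0.29). Both Chaf1b-deleted libraries lay below both controls for 74 of the 243 genes (30.45%), against 21.4% of all genes tested.

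Transcription and copying of the mitochondrial chromosome were covered by 22 genes, of which 18 had a log2 fold change below 0 (median -0.22, or -0.05 without control replicate 1). At an unadjusted p under 0.05, 2 of the 22 were lower (9.091%), against 3.1% of all genes tested. Top1mt, the mitochondrial topoisomerase, had 17 and 11.5 CPM in the controls and 7.8 CPM in both Chaf1b-deleted libraries, each below each control (log2 fold change -0.87, SE 0.32, edgeR adjusted p = 0.322). The mitochondrial RNA polymerase and its main activating factor were added after their values were seen. Polrmt had 30.3 and 24.6 CPM against 19.5 and 18.3 CPM (log2 fold change -0.54, SE 0.24, adjusted p = 0.416). Tfam, which also packages the chromosome, had 54.1 and 44.1 CPM against 49.1 and 40.5 CPM, with overlapping groups (log2 fold change -0.13, SE 0.22, adjusted p = 0.863). None of these differences passed the test.

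Cutting, modification and decay of the RNAs were covered by 33 genes, of which 29 had a value below 0 (median -0.24). At an unadjusted p under 0.05, 1 gene was lower (3.03%), against 3.1% of all genes tested. The median was -0.07 without control replicate 1, -0.11 without Chaf1b-deleted replicate 2 and -0.40 without control replicate 2. That gene, Fastk, had 45.6 and 47.3 CPM in the controls and 33.2 and 29.8 CPM in the Chaf1b-deleted libraries (log2 fold change -0.56, SE 0.20, adjusted p = 0.318). Elac2, which cuts the 3′ ends of tRNAs and was also chosen after its values were seen, had 63.2 and 49.2 against 53 and 41.3 CPM, with overlapping groups.

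Translation was covered by 3 lists. The list of tRNA synthetases, which load the amino acids onto the tRNAs, held 22 genes. It also took in Qrsl1, Pet112l and Gatc, which belong to a tRNA amidotransferase and are no synthetases. Of the 22 genes, 20 were below 0 (median -0.22, or -0.14 without control replicate 1 and -0.35 without control replicate 2). Rars2, for arginine, had 41.3 and 35 against 28.8 and 24 CPM (log2 fold change -0.53, SE 0.23, edgeR adjusted p = 0.399). All 13 translation factors were below 0 (median -0.30, or -0.18 without control replicate 1), and Ptcd3, a protein of the small ribosomal subunit, had 115 and 88.1 against 69.3 and 68.1 CPM (log2 fold change -0.56, SE 0.22, adjusted p = 0.344). Of 75 tested mitochondrial ribosomal proteins (77 found), 62 were below 0 (median -0.19). At an unadjusted p under 0.05, 3.1% of all genes tested were lower, against 7 (9.333%) of these 75. Mrpl23 had the lowest value among them, with 20 and 25 counts against 2 and 8 (log2 fold change -1.89, SE 0.78, adjusted p = 0.381, with values of -1.18 without Chaf1b-deleted replicate 1 and -3.24 without Chaf1b-deleted replicate 2). The median of the ribosomal proteins was 0.03 without Chaf1b-deleted replicate 2, 0.05 without control replicate 1, -0.38 without control replicate 2 and -0.45 without Chaf1b-deleted replicate 1.

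Of 78 tested genes of the nuclear subunit list (84 found), 52 were below 0 (median -0.11), and the median was 0.13 without Chaf1b-deleted replicate 2, -0.02 without control replicate 1, -0.22 without control replicate 2 and -0.38 without Chaf1b-deleted replicate 1. Ndufa4l2, related to a subunit of complex IV, had 14 and 82 counts in the controls and 8 and 6 in the Chaf1b-deleted libraries (log2 fold change -2.48, SE 0.85, adjusted p = 0.293). It passed the test without control replicate 1 (adjusted p = 0.0265) and with no low-count filter (adjusted p = 0.00568), and had a log2 fold change of -0.86 without control replicate 2 (adjusted p = 0.99). The controls themselves differed more from each other than control 1 did from the deleted libraries. Cox4i2, an alternative form of a complex IV subunit that was named after its values were seen, had 35 and 164 counts against 213 and 164, and passed the test as higher without control replicate 2 (log2 fold change 2.55, adjusted p = 0.00945). Regulators of mitochondrial biogenesis numbered 6 tested of 7 found, with 5 below 0 (median -0.27, or -0.15 without Chaf1b-deleted replicate 2) and 0 at an unadjusted p under 0.05.

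**Figure D4:**
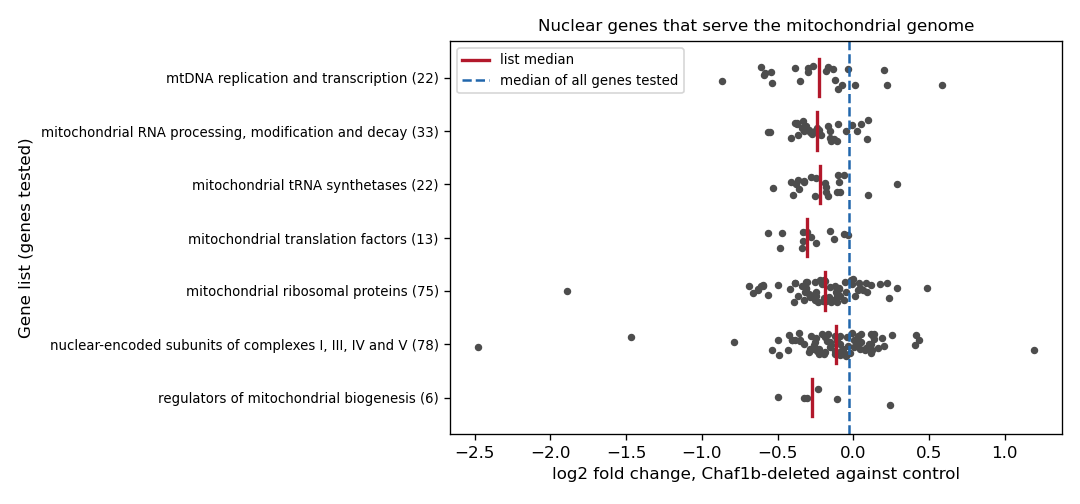
Each point is the log2 fold change of 1 nuclear gene, Chaf1b-deleted against control, by list, with the list median in red and the median of all genes tested as a dashed line. List medians run from -0.30 to -0.11, left of the dashed line at -0.03. The test was passed by 0 of the 243 genes and by 0 of the 6 regulators of mitochondrial biogenesis.

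The labelled cell type was checked by its markers. All 8 HSPC markers (among them Kit, Cd34 and Flt3) had 10 counts or more in every library and summed to 1758 to 1951 CPM. Neutrophil markers summed to 45160 to 65570 CPM, mast cell and basophil markers to 583.9 to 996.4 CPM, monocyte and macrophage markers to 282.2 to 815.7 CPM, and dendritic cell markers, which share Flt3 with the HSPC list, to 49.13 to 290.4 CPM. Erythroid markers (26.13 to 51.81 CPM) and stromal markers (11.37 to 44.45 CPM) overlapped between the groups. Megakaryocyte markers were higher in both Chaf1b-deleted libraries (155.1 and 275 CPM) than in the controls (107.6 and 105.6 CPM), as were lymphoid markers (7.434 and 8.068 against 4.002 and 3.739 CPM). The lymphoid sums were low, and 3 of the 6 lymphoid markers had 10 counts or more in every library. Among single genes, 3676 of 16500 tested also had both Chaf1b-deleted libraries above both controls. The marker sums were not tested. Fewer cells of a type and less RNA per cell cannot be told apart in such bulk samples. Chaf1b-deleted 1 stood apart, with Xist at 335.8 CPM against 1.144 to 1.299 CPM in the other libraries and 7 interferon-response genes summing to 893 CPM against 44.3 to 64.7 CPM. Without this library 0 of 244 genes of the lists were called, and 34 were lower at an unadjusted p under 0.05, against 731 of 16443 genes tested with and without it. Without this library the median of the lists was -0.36, against -0.18 with it. What set this library apart, and the part of the marker genes in the list medians, were not tested.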

How the data were processed

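Total RNA of sorted HSPCs was sequenced, and the authors used STAR (alignment to mm9) and HTSeq (counting). The deposited values are raw counts per gene, 1 table per library. The annotation release and strand setting are not given in the sources used here. Rows for reads outside genes, ambiguous reads and reads without a unique position were left out of library sizes. Of 43629 identifiers, 33068 were named from the NCBIM37 annotation. Groups and replicate numbers came from the labels.

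Counts were compared with edgeR 4.0.16 (R 4.3.3, limma 3.58.1): a low-count filter with a minimum count of 10, TMM normalization (factors 0.926 to 1.06), glmQLFit and glmQLFTest without covariate, and Benjamini-Hochberg adjustment over the 16500 genes tested. Genes were called at 1.5-fold and an adjusted p under 0.05. The fit was tested on simulated data. CPM were scaled to the total on genes, after TMM for genes of the lists. DESeq2 1.42.0 was an alternative. Nuclear copies were exact matches of 31-base stretches, on either strand. The genes named were all members, Chaf1b, Chaf1a, and from each list the called genes or, with none called, the largest increase and decrease at an unadjusted p under 0.05, and up to 3 nuclear copies with over 50% mitochondrial stretches, by counts. Others are marked as chosen after their values were seen. The members and lists were chosen with earlier results of these data known. Depth was 18468637 to 25409926 counts on genes.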

Additional observations from a re-analysis of the deposited data

How the results depend on the processing

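Counts of 0 in every library cannot change with the normalization, filter, test or library left out, so the alternatives say nothing about the stability of the members' values (0 called, shares of 0%). The share of mt-Nd6 and the ratio of mt-Rnr2 to mt-Rnr1 gave no value under any setting, nor did their differences within pairs, and a count column of another strand setting was not run because each table holds 1 count column. Gm10222 was the 1 nuclear copy analysed with over 50% mitochondrial stretches (0 counts), whether stretches of 31 or, as chosen after seeing the data, of 75 bases were used.

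For the nuclear lists, the number called lower was 1 with no low-count filter, and leaving out 1 library each gave 0 to 1 lower and 0 to 1 higher. Their median log2 fold change ranged from -0.36 to 0.00246 when 1 library was left out (a lone library of a group was assumed to vary like the other group), and turned direction without Chaf1b-deleted replicate 2. Replicate numbers showed no sign of pairing the samples (correlation of same-numbered deviations 0.013 over 16500 genes). This rests on a single difference per group and cannot settle whether the samples were paired. With the replicate block, 0 list genes were called, the median was -0.19, and 14 genes were called higher among all genes, against 61. Chaf1b missed the adjusted threshold with the block (0.059) and with at least 10 counts in every library (0.0651). The fold change of Gm13341 turned to -0.00805 with library size only and -0.00372 with the block, and ranged from -0.39 to 0.38 when 1 library was left out. Over all genes, calls higher and lower were 27 and 1 with DESeq2's size factors, 30 and 1 with library size only, 808 and 79 with no filter, 3 and 0 with at least 10 counts, 537 and 37 with the exact test, 583 and 40 with the likelihood ratio test, 472 and 34 with DESeq2, 280 and 42 without control replicate 1, 331 and 24 without control replicate 2, 125 and 6 without Chaf1b-deleted replicate 1, 324 and 42 without Chaf1b-deleted replicate 2, and 0 and 0 at 2-fold and an adjusted p under 0.01. The causes were not tested. The 0 of the members bounds counted reads only, at 3 counts per library.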
